A study of Mus musculus with 8 samples.

Results

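Untreated DC2.4 cells, a mouse dendritic cell line, are described here from 2 of the 8 RNA-seq libraries of a study of allergen extracts. Both libraries labelled as untreated were taken, and no comparison with an extract is made. The line is of C57BL/6 strain and is grown in RPMI with 10% FBS. The labels' protocol has the cells kept for 4 h in 0.1% FBS before an extract was added. The extract was added at 250 PNU/ml for 4 h to the other 6 libraries, 2 each of house dust mite, timothy grass and cat hair. These extract libraries enter the estimate of spread, the choice of rows to test and the comparison of spread within pairs. The untreated cells carry the treatment label none. The labels name no vehicle for them and do not say how long they were kept after the low-serum step. The design text calls the 2 samples of a group independent, and nothing says whether they came from separate thawed cultures, so a p-value here weighs a difference only against the spread between such samples, which may be technical. All libraries come from the same established line, so they do not sample different animals.

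Dendritic cells take up foreign material, sense microbial molecules through Toll-like and cytosolic receptors, and present peptides to T cells on MHC class I (to CD8 cells) and class II (to CD4 cells). Conventional dendritic cells depend on the growth factor FLT3L and its receptor Flt3, whereas macrophages depend on CSF1 and its receptor Csf1r. DC2.4 was made from C57BL/6 bone marrow by retroviral transfer of GM-CSF followed by oncogenes, and is used in many studies of antigen uptake and cross-presentation.

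The untreated libraries held 35.81 M reads (untreated 1) and 35.9 M reads (untreated 2), inside the 31.94 to 43.32 M range of all libraries. Values are given in the deposited unit, a depth-scaled read count whose columns sum to 1032128 in untreated 1 and 1047501 in untreated 2. In it 1 read was worth 0.0288 in untreated 1 and 0.0292 in untreated 2. A gene with no read could have a value of up to 0.0865 in untreated 1 and 0.0875 in untreated 2, the worth of 3 reads. These limits and the intervals below cover counting error only.

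A gene was called detected at a value of at least 0.5 in both untreated libraries, which took 18 reads in each. By that rule 11135 of 24054 rows (46.3%) were detected, 9309 rows (38.7%) had no read in either library, and the remaining 3610 (15%) had reads but fell short of the minimum. Of the detected rows, 1542 had a mean value under 5, 4902 had 5 to 50, 4380 had 50 to 500, and 311 were at 500 or more. No small set of genes took most of the reads. The 10 most abundant rows held 4.82% of the reads in untreated 1 and 4.94% in untreated 2, and it took 905 rows in untreated 1 and 894 in untreated 2 to reach 50% of them. Ribosomal protein rows held 5.36% in untreated 1 and 5.56% in untreated 2.

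The row with the most reads was Eef1a1, the translation elongation factor that brings aminoacyl-tRNA to the ribosome, at 9690 in untreated 1 and 10237 in untreated 2. Next came Spp1, which encodes the secreted phosphoprotein osteopontin, at 5536 in untreated 1 and 6118 in untreated 2. It was the only secreted cytokine among the 20 rows with the most reads. The others included the ferritin light chain Ftl1, the actins Actb and Actg1, the chaperones Hspa8 and Hsp90ab1, and the lipoprotein lipase Lpl at 2721 and 2629. Levels of different genes were compared only per length of transcript, as TPM computed from the deposited values. On that scale the median detected gene stood at 28.3 TPM and the 99th percentile at 1278 TPM. Ftl1 was highest (mean 13861 TPM), followed by Eef1a1 (12972 TPM), Spp1 (9029 TPM), Gapdh (7282 TPM) and Actb (6347 TPM). Of the 20 genes with the highest TPM, 5 carry out glycolysis (Gapdh, Eno1, Pkm, Aldoa and Ldha), and 7 are ribosomal protein genes. Ranks among ribosomal protein, Eef1a1, Ftl1 and Gapdh rows are uncertain, because these genes have many near-identical processed copies between which reads can be split.

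The transcription factors that drive myeloid and dendritic development were mostly present, 21 of 24 against 46.3% of all rows. Spi1 (PU.1), the master regulator of myeloid cells, was at 215 in untreated 1 and 225 in untreated 2. Irf8, needed for the cDC1 type of dendritic cell, was at 57.7 and 62.6, and Nfil3, which acts upstream in the same lineage, was at 62.4 and 68.2. The factors that separate mature dendritic subsets were low per length, at means of 10.2 TPM for Batf3 and 1.28 TPM for Irf4 against 253 TPM for Spi1 and 49.3 TPM for Irf8. Batf3, which sustains Irf8 in cDC1, was at 3.26 in untreated 1 and 3.73 in untreated 2, and Irf4, which acts in cDC2, was at 2.31 and 2.92. Zbtb46, which in the mouse marks the conventional dendritic lineage, was at 1.38 and 0.992, or a mean of 0.524 TPM. Bcl11a and Ets1 had no read in either library, and Gfi1 had 3 reads in each.

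Of the surface genes of conventional dendritic cells 9 of 20 were detected (45%), near the 46.3% of all rows. Cd24a (644 and 650), Sirpa (776 and 739), Itgam (267 and 271) and Cadm1 (118 and 132) were high in both libraries. These genes are shared with macrophages or other cells. Clec10a, a galactose-binding lectin of cDC2 and macrophages, was at 29.9 and 32.6. The gene for CD11c, Itgax, with which dendritic cells are usually gated, was at 2.57 in untreated 1 and 2.6 in untreated 2. Cd8a and Xcr1, both markers of cDC1, were just above the minimum, at 0.98 and 0.584 for Cd8a and 0.721 and 0.642 for Xcr1. Naaa, a lysosomal amidase, was at 14 and 12.8. The remaining 11 markers of the list were below the minimum. Flt3 had 1 read in untreated 1 and none in untreated 2, and Clec9a, the dead-cell receptor of cDC1, had 3 reads and 1 read. Ly75 (DEC-205), Cd209a (DC-SIGN), Dpp4, Btla and Ccr7, the receptor that guides dendritic cells to lymph nodes, had none in either library. Of the plasmacytoid list 7 of 12 were detected, with Bst2, also an interferon-stimulated gene, highest at 69.8 and 78.6, but the defining marker Siglech had no read.

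Genes of the macrophage and monocyte list were detected in 17 of 26 cases (65.4%), against 46.3% of all rows. Csf1r was at 506 in untreated 1 and 492 in untreated 2, Cd68 at 483 and 488, and Emr1 (F4/80) at 156 and 152. Fcgr1 (CD64), a high-affinity receptor for IgG that is used to tell macrophages from dendritic cells, was at 134 and 146. Lgals3, a galactose-binding lectin, and Cd68, a lysosomal glycoprotein, were the highest of this list per length, at 1073 and 923 TPM. Several genes that mark resident tissue macrophages had few or no reads: Marco, Cd163, Timd4 and Vsig4 had no read, Mrc1 had 1 read in untreated 1 and none in untreated 2, and Mertk had 9 reads in each. Siglec1 (CD169) was detected at 3.34 and 2.71, as were the chemokine receptor Cx3cr1 at 2.16 and 1.49 and the lipid receptor Trem2 at 89.8 and 83.6. The genes of complement C1q were low, C1qa at 3.49 and 3.33. Against the label of a dendritic cell, then, Spi1, Irf8 and part of the surface list were present, and Flt3 was at or near 0. Itgax and Zbtb46 were low beside Csf1r, Emr1 and Fcgr1 per length (1.49 and 0.524 TPM against 248, 111 and 126 TPM). Mertk, Mrc1, Marco, Cd163, Timd4, Vsig4 and C1qa, of the macrophage list as well, were low or had no read. These levels thus do not settle which cell type the line is nearer to. In bulk RNA, fewer cells that express a gene and less of its RNA per cell cannot be told apart.

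Markers of other cell types were nearly all absent, whereas 46.3% of all rows were detected. No gene was detected among 8 of B cells, 8 of NK cells, 9 of mast cells and basophils, and 6 of epithelium, and together these 31 genes had 18 reads in untreated 1 and 20 in untreated 2. Of the T cell list 3 of 11 were detected, namely Cd28 (29.9 and 29.2), Lck (2.42 and 3.18) and Cd5 (2.13 and 2.1). The T cell receptor chains Cd3e and Cd3g and the signalling chain Cd247 had no read. Of the neutrophil list, 3 of the 13 in the table were detected, with the chemokine receptor Cxcr2 at 58.6 and 63.8, while Mpo, Elane, S100a8 and S100a9 had no read. Pf4, a chemokine known from platelets and also made by macrophages, stood alone in the erythroid and megakaryocyte list at 162 and 163, with Gata1 and Gp9 at no read. Vim, the intermediate filament of mesenchymal and blood cells alike, stood alone in the fibroblast list at 1455 and 1549, with all of the collagen genes listed at no read. Pecam1, at 0.922 and 0.934, was the only one of 6 endothelial genes detected. Xist had 1 read in untreated 1 and none in untreated 2, and 4 Y-linked genes had 1 read in each library.

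**Figure D1:**
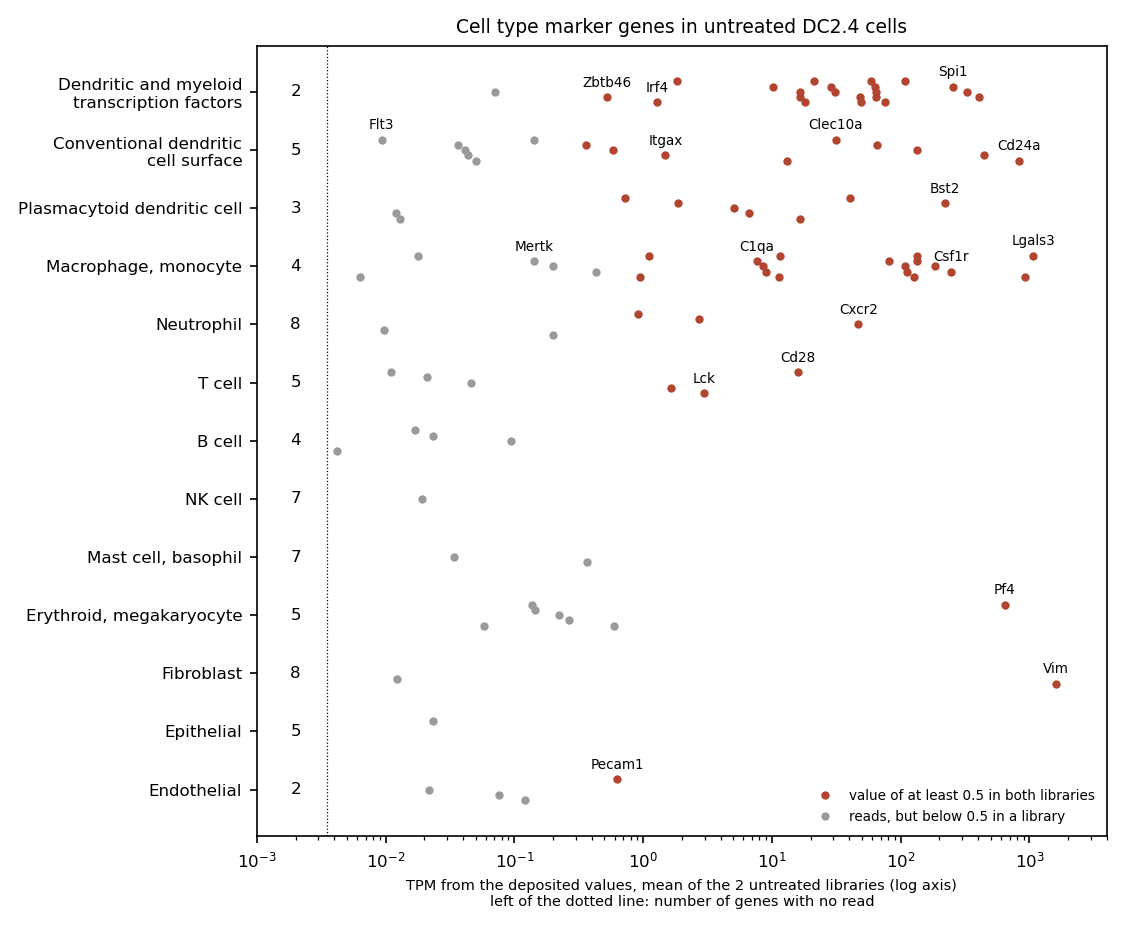
Level of cell type marker genes in untreated DC2.4 cells, as TPM from the deposited values, mean of the 2 untreated libraries, on a log axis. Each point is a gene of the list named at left, red where detected in both libraries and grey where not, and the number left of the dotted line counts genes with no read. The B cell, NK cell, mast cell and epithelial rows hold no red point, and Flt3 lies far left of Spi1 and Csf1r.

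Antigen presentation was uneven. Of the class I pathway 24 of 27 genes were detected, against 46.3% of all rows, and all 27 had a read. B2m, the light chain shared by all class I molecules, was at 841 in untreated 1 and 919 in untreated 2, H2-K1 at 363 and 357, and H2-D1 at 420 and 424. The peptide transporter genes Tap1 (50.2 and 56.5) and Tap2 (32.7 and 32.3) and Nlrc5 (114 and 117), the transactivator of class I genes, were present as well. H2-K1, H2-D1 and the H2-Q and H2-T genes are close copies, so reads may be shared between them.

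The antigen-presenting chains of class II had almost no reads. H2-Ab1 had no read in either library. H2-Aa had no read in untreated 1 and 1 read in untreated 2, and so did Ciita, the master transactivator of class II genes. H2-Eb1 alone of the classical chains had more than 1 read, with 28 reads in untreated 1 and 16 in untreated 2. H2-Ea, listed as H2-Ea-ps and known to be non-functional in the C57BL/6 haplotype, had none. Cd74, the invariant chain that escorts class II molecules, was nonetheless at 200 in untreated 1 and 208 in untreated 2. The RFX factors that bind class II promoters were also there, with Rfx5 at 46.1 and 45.1. So were the proteases and reductase that prepare peptides: Ctss (317 and 318), Lgmn (427 and 422) and Ifi30 (303 and 288). Of the peptide editors, H2-DMb1 was at 5.07 and 5.57 and H2-DMa at 1.01 and 0.7, while H2-Ob had no read.

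**Figure D2:**
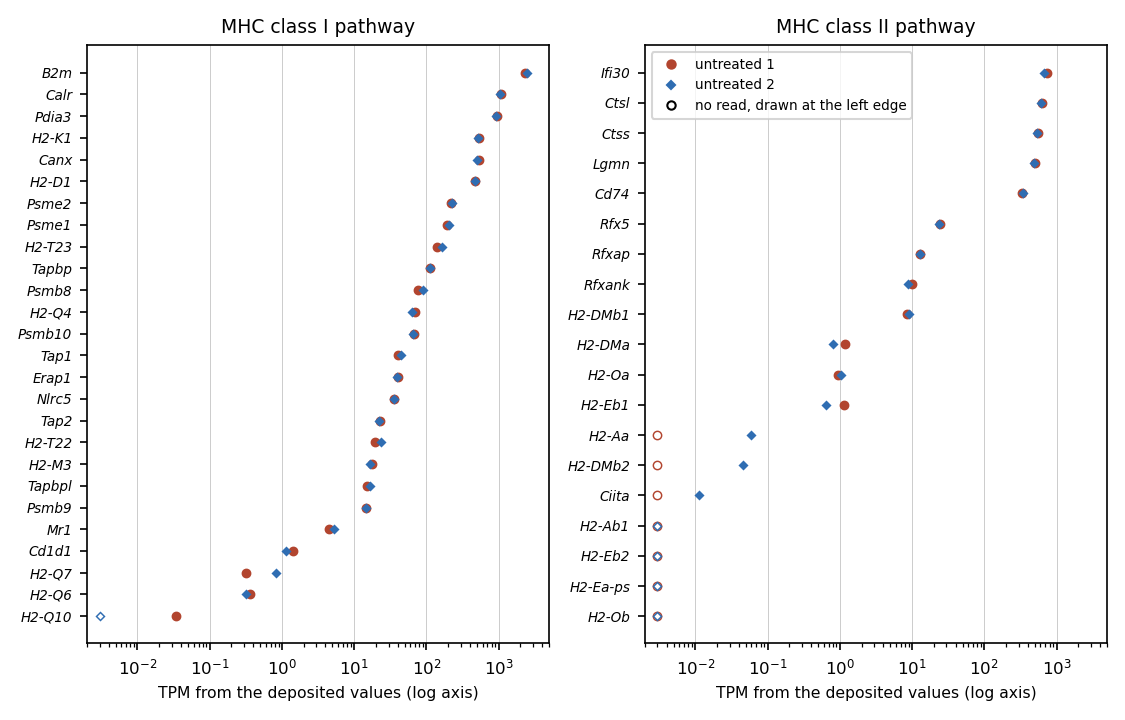
Level of each gene of the MHC class I and class II pathways in untreated 1 (red circles) and untreated 2 (blue diamonds), as TPM from the deposited values on a log axis, with open symbols for no read. Nearly all of the class I genes lie above 1 TPM, whereas H2-Aa, H2-Ab1 and Ciita lie at or near the left edge under Cd74 at a mean of 339 TPM.

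Most genes of microbial sensing were present. Of the Toll-like receptor list 21 of 24 genes were detected, against 46.3% of all rows. The highest receptor was Tlr13, a sensor of bacterial ribosomal RNA in the mouse, at 118 in untreated 1 and 121 in untreated 2, or 68.9 TPM. Tlr2, which senses lipopeptides, was at 60.8 and 58.6, Tlr4, which senses lipopolysaccharide, at 59.5 and 63.6, and Tlr7, a sensor of RNA, at 43.2 and 42.8. The co-receptor for Tlr4, Ly96 (MD-2), was at 3.37 and 2.92, and Cd14, which hands lipopolysaccharide to it, at 56.8 and 57.5. Tlr9, a sensor of unmethylated DNA, was lower at 7.67 and 8.08. The flagellin receptor Tlr5 had 1 read in untreated 1 and 2 in untreated 2, and Tlr11 and Tlr12, sensors of profilin in the mouse, had none. The adaptor Myd88 was at 102 and 107.

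Of the cytosolic sensors 24 of 29 were detected, against 46.3% of all rows. Nlrp3, the sensor subunit of an inflammasome, was at 116 in untreated 1 and 124 in untreated 2, the DNA sensor Aim2 at 62.6 and 62, and Casp1, the protease that inflammasomes activate, at 24.3 and 26.2. Pycard, the adaptor ASC that joins those sensors to Casp1, had 8 reads in untreated 1 and 1 read in untreated 2. That is 0.231 and 0.0292, below the minimum in both. The RNA sensor Ddx58 (RIG-I) was at 127 and 150 and the cGAS gene, listed as Mb21d1, at 73.6 and 76.1, with its adaptor STING, listed as Tmem173, at 52.5 and 50.4.

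Lectin and scavenger receptors were detected in 14 of 26 cases (53.8%), against 46.3% of all rows. Per length the lipid receptor Scarb1 (180 TPM), Clec4d (149 TPM), a lectin of the Mincle family, and the lipid receptor Cd36 (148 TPM) were the highest. In the deposited unit Scarb1 was at 196 and 191, Clec4d at 81.4 and 87.1, and Cd36 at 216 and 214. The scavenger receptor Colec12 was at 180 and 175, and Clec7a (dectin-1), the receptor for beta-glucan, at 7.7 and 7.35. Clec4n (dectin-2), a mouse receptor for mite and fungal glycans, had 4 reads in untreated 1 and none in untreated 2. Of 14 receptors that have been tied to allergens or their products, 7 were detected (50%), near the 46.3% of all rows. The protease-activated receptors F2r, F2rl1, F2rl2 and F2rl3, which extracellular proteases cleave, had no read in either library, nor had Trpv1, Trpa1 and Havcr1. Ahr, a receptor for aryl hydrocarbons, was at 4.67 and 3.94, and the ATP receptor P2rx7 at 23.3 and 24.2.

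Among receptors for growth factors and cytokines, the GM-CSF receptor chains Csf2ra (48.8 and 45.3), Csf2rb (53.1 and 54.8) and Csf2rb2 (40.2 and 47.3) were present. Csf2rb and Csf2rb2 are close copies whose reads may be shared. Of 33 cytokine receptors 24 were detected (72.7%), against 46.3% of all rows. They include both chains of the type I interferon receptor, Ifnar1 (45.9 and 45.3) and Ifnar2 (20.2 and 21.5), the IL-33 receptor Il1rl1 (31 and 31.3) and the TSLP receptor Crlf2 (14.7 and 13.8). Il4ra, which binds the type 2 cytokine IL-4, was at 8.88 and 9.02. Of the chemokine receptors 8 of 24 were detected (33.3%), against the same 46.3%. The complement receptors C3ar1 (255 and 267) and C5ar1 (141 and 143), listed with them, were the highest per length at 142 and 131 TPM, and Ccr6, Ccr7 and Ccr8 had no read. Of the Fc receptor list 6 of 10 were detected, led by the signalling chain Fcer1g at 177 and 190, while the IgE-binding chain Fcer1a had no read in untreated 1 and 1 in untreated 2.

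Costimulatory genes were detected in 11 of 16 cases (68.8%), against 46.3% of all rows. Cd86 was at 24.5 in untreated 1 and 24.3 in untreated 2, Cd80 at 7.78 and 9.19, and Cd40 at 4.01 and 3.68. Tnfsf4 (OX40 ligand), Cd70, Pdcd1lg2 (PD-L2) and Cd48 had no read in either library. Cytokine genes were detected in 10 of 28 cases (35.7%), against the same 46.3%. Spp1 apart, the highest per length were Tgfb1 (231 TPM), Csf1 (116 TPM), Vegfa (68.7 TPM) and Tnf (53.8 TPM). In the deposited unit Tgfb1 was at 215 and 214 and Tnf at 35.9 and 39.6. Il12a, Il12b, Tslp, Il4 and Il13 had no read. Il1b had no read in untreated 1 and 2 in untreated 2, and Il6 had 2 reads in untreated 1 and none in untreated 2. Chemokine genes were detected in 11 of 28 cases (39.3%), again beside the 46.3% of all rows. They were led per length by Ccl3 (659 TPM), Pf4 (645 TPM) and Ccl9 (288 TPM), with Ccl9 at 362 and 380 in the deposited unit. Ccl17, a chemokine that dendritic cells make to draw Th2 cells, had no read, and Ccl22 had 5 reads and 3 reads.

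All 32 cell cycle genes were detected, against 46.3% of all rows, from 33.7 to 908 TPM. Mki67 was at 787 in untreated 1 and 746 in untreated 2, after low-serum medium. All 20 genes of glycolysis and hypoxia were detected, and so were all 20 of lysosomes and uptake, with the protease Ctsb at 1716 and 1742. Of the genes tied to the making of the line, Myc was at 0.375 and 0.584, below the minimum in untreated 1, and Csf2 had 3 reads and 2 reads. How reads from a retroviral copy would be counted in this table is not given in the sources used here. Trp53 was at 294 in each library and its target Cdkn1a at 306 in untreated 1 and 345 in untreated 2. Cdkn2a and Cdkn2b, neighbouring inhibitors of the cell cycle, had no read.

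Promoter windows from RefSeq (250 bases before to 50 after a gene's start, build GRCm38.p6) matched 16781 rows. The ratio of observed to expected CpG had a median of 0.806 in detected genes and 0.238 in genes with no read, against 0.619 in all matched genes. The coordinates given below are those of that build and not of the files'.

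The 2 untreated libraries were closer to each other than a 1.5-fold difference for nearly all genes. Of 10754 rows with a mean of at least 1, 31 (0.288%) were at least 1.5-fold higher in untreated 1 and 45 (0.418%) were at least 1.5-fold higher in untreated 2. The median absolute log2 ratio was 0.0592 in the untreated pair, above the 0.0437 of the house dust mite pair, the 0.045 of the grass pair and the 0.0457 of the cat pair. Counting error alone would give 0.0369 in the untreated pair. The 76 untreated rows at least 1.5-fold apart compare with 44, 44 and 69 in the house dust mite, grass and cat pairs. Over rows with a mean of at least 1, the SD of the log2 ratio was 0.14 in the untreated pair. It was 0.128 in the house dust mite pair, 0.151 in the grass pair and 0.144 in the cat pair. Among rows with a mean of at least 10, the SD was 0.0954 in the untreated pair, against 0.0727, 0.0857 and 0.0756. These are descriptions of 4 pairs with no test.

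**Figure D3:**
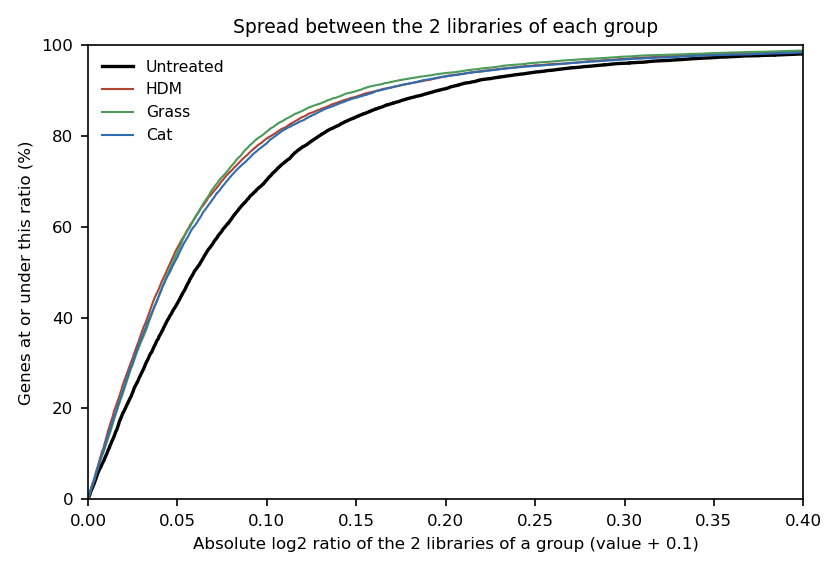
Share of genes, in percent, whose 2 libraries of a group differ by no more than the absolute log2 ratio on the x axis, for rows with a mean of at least 1. The untreated pair (black) runs below the house dust mite, grass and cat pairs over most of the plotted range, with a median of 0.0592 against 0.0437 to 0.0457.

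Each untreated library stands alone, so its spread was taken from the 3 extract pairs, with 3 residual degrees of freedom, on the assumption that untreated libraries vary like them. On that assumption limma with Benjamini-Hochberg adjustment called 184 of 11455 tested rows (1.61%) at an adjusted p under 0.05, 45 (0.393%) higher in untreated 1 and 139 (1.21%) higher in untreated 2. The differences were small, with a median absolute log2 of 0.20, and 8 of the called rows were at least 1.5-fold apart. The share of called rows that were higher in untreated 1, 24.5%, became 36.6% with TMM factors and 39.8% with upper-quartile factors. edgeR on the whole reads called 98 rows, DESeq2 called 73 by default and 29 without its independent filtering, and limma with no filter on low values called 6. By the median absolute log2 ratio the untreated pair was wider than each extract pair. By the SD it was wider than each among rows with a mean of at least 10. Over rows with a mean of at least 1, the SD was larger in the grass and cat pairs. Among rows with a mean of at least 10, the untreated pair had a median absolute log2 ratio of 0.052. The house dust mite, grass and cat pairs had 0.0369, 0.0393 and 0.0385. At the lowest fold tried, under 1.5, 64 of these rows (0.729%) were apart in the untreated pair, against 14, 13 and 13. With 1 untreated pair, greater variation of untreated libraries cannot be told from a difference between these libraries. If untreated libraries do vary more than extract libraries, the SEs and p-values are too small.

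**Figure D4:**
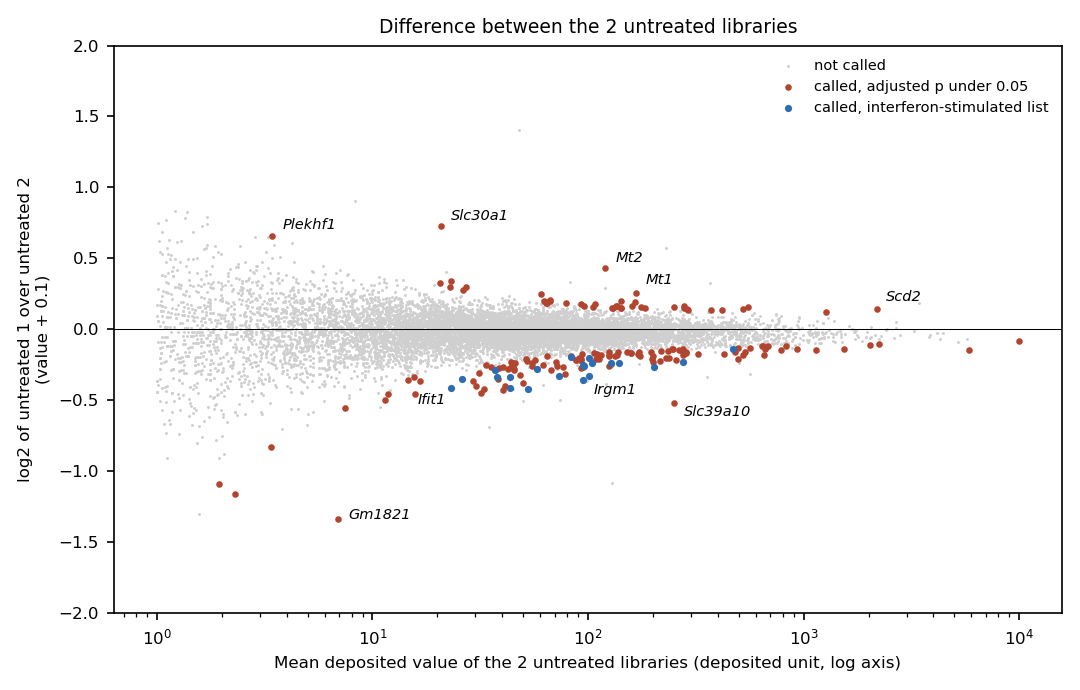
Difference between the untreated libraries for rows with a mean of at least 1: log2 of untreated 1 over untreated 2 against the mean deposited value on a log axis, with called rows in red, called interferon-stimulated genes in blue and the rest in grey. All 21 blue points lie below 0, Slc30a1 and Mt2 lie above it and Slc39a10 below, and 2 rows fall outside the plot.

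Genes that handle zinc held the 3 smallest adjusted p-values of the difference, in opposite directions. Slc30a1 (ZnT1), which exports zinc from the cell, was at 25.9 in untreated 1 and 15.6 in untreated 2, a ratio of 1.66 with a 95% counting interval of 1.49 to 1.85 (log2 0.73 ± 0.07 SE, limma adjusted p = 7.5e-08). The metallothionein Mt2, which binds zinc and copper in the cytosol, was at 138 in untreated 1 and 102 in untreated 2 (log2 0.43 ± 0.04 SE, limma adjusted p = 2.9e-08). Mt1, its neighbour and paralog, was at 181 in untreated 1 and 151 in untreated 2 (log2 0.26 ± 0.04 SE, limma adjusted p = 0.00016). All 3 were higher in untreated 1. Slc39a10 (ZIP10), which imports zinc, was higher in untreated 2, at 206 in untreated 1 and 295 in untreated 2 (log2 -0.52 ± 0.04 SE, limma adjusted p = 2.8e-11).

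The zinc list was drawn up after these 4 differences had been seen, so it describes and does not test. Of its 29 genes 20 were tested, 3 were called higher in untreated 1 and 1 was called higher in untreated 2, against 0.393% and 1.21% of all tested rows. Mtf1, the zinc-sensing transcription factor known to act on Mt1, Mt2 and Slc30a1, was at 50.8 in untreated 1 and 52.8 in untreated 2 and was not called. The other transporters not called had ratios on both sides of 1. The 3 genes called higher in untreated 1 have matches to the core of the metal response element, TGCACNC or TGCGCNC on either strand, which Mtf1 binds. Their promoter windows are shown as the sequences of genes with large differences, and whether the element bears on the difference was not tested. Capitals mark the matches, 2 in Slc30a1, 4 in Mt2 and 3 in Mt1.
Slc30a1, chr1:191906531-191906830, + strand: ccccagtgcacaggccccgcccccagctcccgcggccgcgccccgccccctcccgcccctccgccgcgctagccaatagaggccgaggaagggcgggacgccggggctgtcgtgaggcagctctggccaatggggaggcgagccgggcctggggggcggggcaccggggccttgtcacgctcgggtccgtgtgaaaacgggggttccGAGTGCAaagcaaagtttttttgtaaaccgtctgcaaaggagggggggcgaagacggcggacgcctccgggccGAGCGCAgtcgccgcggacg
Mt2, chr8:94172368-94172667, + strand: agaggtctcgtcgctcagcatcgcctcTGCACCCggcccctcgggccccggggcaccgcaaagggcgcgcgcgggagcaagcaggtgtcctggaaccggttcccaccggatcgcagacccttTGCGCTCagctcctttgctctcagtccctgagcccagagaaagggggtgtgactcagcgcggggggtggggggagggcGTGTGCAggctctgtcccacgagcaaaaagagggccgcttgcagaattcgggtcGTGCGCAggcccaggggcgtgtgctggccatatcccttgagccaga
Mt1, chr8:94178839-94179138, + strand: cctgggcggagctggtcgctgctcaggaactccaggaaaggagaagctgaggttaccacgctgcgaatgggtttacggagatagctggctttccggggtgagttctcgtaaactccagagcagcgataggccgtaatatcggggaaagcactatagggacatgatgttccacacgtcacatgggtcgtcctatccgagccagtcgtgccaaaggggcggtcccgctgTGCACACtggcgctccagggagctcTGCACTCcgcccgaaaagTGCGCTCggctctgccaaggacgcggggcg
The same search found a match in 32.5% of genes with a window and 40.4% of detected ones, so a match alone is common. Among the zinc list genes that were not called, 6 of 13 with a window held a match, and in the window of Slc39a10 these letters were not found. The motif and the 3 genes were chosen after the differences had been seen.

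**Figure D5:**
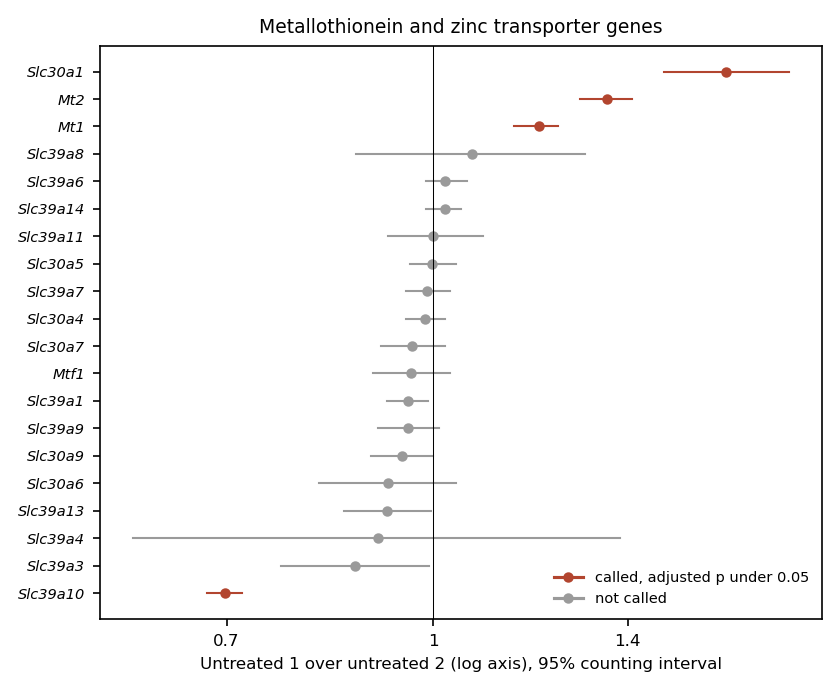
Ratio of untreated 1 over untreated 2 for the 20 tested genes of the zinc list (metallothioneins, zinc transporters and Mtf1), on a log axis, with 95% counting intervals. Slc30a1, Mt2 and Mt1 lie right of 1 and Slc39a10 left of 1 (red, called), and grey points were not called.

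Many interferon-stimulated genes were higher in untreated 2. These are genes of antiviral defence that cells switch on after interferon. The list was chosen with earlier results of these data known. Of 50 listed genes 48 were detected in the untreated cells, against 46.3% of all rows. Of 49 tested, 21 were called higher in untreated 2 and none higher in untreated 1, against 1.21% and 0.393% of all tested rows. In limma none was higher in untreated 1 even at an unadjusted p under 0.05, and 36 were higher in untreated 2 at that level. Of all 11455 tested rows, 1522 were at that level in either direction. edgeR called 23 higher in untreated 2 and DESeq2 only 2, with no adjusted p given for 19 of the 21, or 4 without its independent filtering. Neither tool called any higher in untreated 1. In all, 48 of 49 had the higher value in untreated 2, against 6321 of all 11455 tested rows. The median log2 of the list was -0.26, against -0.01 over all tested rows. Irgm1, an interferon-inducible GTPase, was at 83.3 in untreated 1 and 107 in untreated 2 (log2 -0.35 ± 0.05 SE). Ifit1, which binds viral RNA caps, was at 19.9 in untreated 1 and 26.5 in untreated 2 (log2 -0.41 ± 0.09 SE, limma adjusted p = 0.016). The sensor genes Ddx58, Ifih1 and Eif2ak2 were called too, with log2 of -0.24, -0.29 and -0.23. Isg15, a ubiquitin-like protein that is among the strongest interferon targets, was at 38.2 in untreated 1 and 51.1 in untreated 2 and was not called (limma adjusted p = 0.19). Mx1 was the only tested gene of the list with a higher value in untreated 1, at 1.24 in untreated 1 and 0.817 in untreated 2. The interferon beta gene Ifnb1 itself had 4 reads in untreated 1 and 7 in untreated 2. Members of the Oas, Ifit, Gbp and Trim30 families are close copies and their reads may be shared.

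The interferon-stimulated response element was searched as GAAA, any 2 bases, GAAA on either strand. A gene was counted where any of its windows held the element. Such genes were 3.85% of all genes with a window. They were 20 of 106 called higher in untreated 2 (18.9%) and none of 33 called higher in untreated 1. Of the interferon-stimulated list 20 of 36 genes with a window held it (55.6%). Outside that list, 10 of 87 called genes higher in untreated 2 did (11.5%). A match is a description of the window and not a shown binding site. The windows below belong to the 3 called members of the list with the largest change among those that hold the element, which stands in capitals. Whether it bears on the difference was not tested. Trim30a, an intracellular TRIM family protein, was at 45.1 in untreated 1 and 60.5 in untreated 2, and 1 of its RefSeq windows is given.
Trim30a, chr7:104465144-104465443, - strand: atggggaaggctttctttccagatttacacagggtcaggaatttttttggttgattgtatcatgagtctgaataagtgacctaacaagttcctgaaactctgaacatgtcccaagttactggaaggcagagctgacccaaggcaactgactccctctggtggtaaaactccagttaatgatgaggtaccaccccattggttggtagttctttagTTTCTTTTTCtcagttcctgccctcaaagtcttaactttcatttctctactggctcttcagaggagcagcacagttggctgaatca
Ifit1, chr19:34640639-34640938, + strand: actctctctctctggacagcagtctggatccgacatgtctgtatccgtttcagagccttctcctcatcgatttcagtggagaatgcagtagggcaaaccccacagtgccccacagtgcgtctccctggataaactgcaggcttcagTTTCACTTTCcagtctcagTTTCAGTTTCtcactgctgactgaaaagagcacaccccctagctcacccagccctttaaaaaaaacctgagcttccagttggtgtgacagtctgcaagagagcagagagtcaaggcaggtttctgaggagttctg
Irgm1, chr11:48871371-48871670, - strand: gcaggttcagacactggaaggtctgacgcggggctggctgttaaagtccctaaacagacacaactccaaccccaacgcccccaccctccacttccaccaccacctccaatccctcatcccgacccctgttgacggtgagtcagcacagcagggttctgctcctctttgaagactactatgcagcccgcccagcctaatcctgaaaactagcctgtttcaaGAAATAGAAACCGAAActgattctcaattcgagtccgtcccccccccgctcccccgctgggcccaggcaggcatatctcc
The window of Trim30a held 1 match, that of Ifit1 2 and that of Irgm1 2.

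Chemokine genes followed the same direction in part. Ccl2, which attracts monocytes, was at 35.7 in untreated 1 and 47 in untreated 2 (log2 -0.40 ± 0.07 SE, limma adjusted p = 0.0015). Ccl3 (200 in untreated 1 and 233 in untreated 2) and Ccl4 (69.7 in untreated 1 and 86.8 in untreated 2), which attract macrophages and other leukocytes, were called higher in untreated 2 as well, 3 of 14 tested chemokine genes in all, against 1.21% of all tested rows. Spp1 was also called higher in untreated 2, by a log2 of -0.14. Jun and Dusp6, of the immediate early list, were called higher in untreated 2 with log2 of -0.18 and -0.21, and 26 of the 28 tested genes of that list were not called, again beside the 1.21% of all tested rows.

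Genes of sterol and fatty acid metabolism leaned the other way. This list too was written after the difference had been seen. Of 21 tested genes limma called 6 higher in untreated 1 and none higher in untreated 2, against 0.393% and 1.21% of all tested rows. Among them were the desaturase Scd2 (2304 in untreated 1 and 2085 in untreated 2), the regulators Srebf1 (144 in untreated 1 and 128 in untreated 2) and Srebf2 (306 in untreated 1 and 278 in untreated 2), the elongase Elovl6 (149 in untreated 1 and 134 in untreated 2) and the cholesterol exporter Abca1 (71.5 in untreated 1 and 62.1 in untreated 2). The log2 differences of these 5 lay between 0.14 and 0.20. Of these 21, edgeR called 2, DESeq2 3 by default and 1 without its independent filtering, all higher in untreated 1, and no tool called any higher in untreated 2, where limma had none at an unadjusted p under 0.05.

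Some genes of the lists that define the cells were called, against 1.61% of all tested rows in either direction. Of 21 tested dendritic and myeloid transcription factors it was 1 (Notch2, higher in untreated 1), of 9 conventional dendritic surface genes 1 (Cadm1), of 17 macrophage genes 1 (Lgals3) and of 32 cell cycle genes 1 (Ccnd1), the last 3 higher in untreated 2. Of 21 Toll-like receptor genes limma, edgeR and DESeq2 called none, and none had an unadjusted limma p under 0.05. Of 12 class II pathway genes these tools called none, and 1 had an unadjusted limma p under 0.05. Of all 11455 tested rows, 1522 had an unadjusted limma p under 0.05. In the class I list H2-T23 and Psmb8, an immunoproteasome subunit, were called higher in untreated 2, 2 of 25 tested.

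Among the 10 called genes that moved most in either direction, several are uncertain as copies. Gm5512, at 2.74 in untreated 1 and 0.0584 in untreated 2, and Gm1821, Gm14288 and Rpl14-ps1, which were higher in untreated 2, are predicted genes or pseudogenes that may take reads from other loci. Gm5512 had 95 reads in untreated 1 and 2 in untreated 2, a ratio of 46.9 with a 95% counting interval of 12.6 to 393, and its limma adjusted p was 0.048. Beside the zinc genes, those higher in untreated 1 were Plekhf1 (4.21 in untreated 1 and 2.63 in untreated 2), Ankle1, 2310067B10Rik, R3hcc1, Fbxl6 and Dhodh, the last of these an enzyme of pyrimidine synthesis. Those higher in untreated 2 were Phyhd1, Avil, Akap6, Cox6a2, Cd200r4 and Bcar3, with log2 differences between -0.83 and -0.44.

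Transcript length moved with the difference. Rows called higher in untreated 1 had a median transcript length of 5.33 kb and rows called higher in untreated 2 one of 2.67 kb, against 3.07 kb for all tested rows. Over rows with a mean of at least 10, the median log2 of untreated 1 over untreated 2 was -0.043 for transcripts up to 1 kb and 0.008 for those over 8 kb. The grass pair showed a like slope, -0.047 and 0.033. The other pairs did not, with 0.014 and 0.016 in the house dust mite pair and 0.009 and 0.006 in the cat pair. After a length trend was removed from each library, 198 rows were called, 66 higher in untreated 1 and 132 higher in untreated 2, and 21 interferon-stimulated genes were called higher in untreated 2.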

How the data were processed

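Per the labels' protocols, mRNA of DC2.4 cells was enriched and turned into 8 libraries by a stranded method. Bowtie2 2.1.0, RSEM 1.2.15, edgeR and the build mm9 are named in the submitters' processing notes, which give them no role. Annotation and strand setting are not given in the sources used here, so reads of a gene and of its antisense partner may not be separated. The table that the authors deposited as raw counts holds a signal scaled for depth: each value was a whole multiple of 1 step per library (100% of values, largest distance from a whole read 9.9e-10), so whole reads were recovered by division. Depth ran from 31.94 to 43.32 M reads. The 27 rows whose symbol became a date stayed in the fit and are not named. The authors' tables of changed genes were not used.

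TPM was computed from the deposited signal with the longest protein-coding transcript in GENCODE M21 (23657 of 24054 rows, 98.3%). That annotation is of another build, so only its lengths were used. Promoter windows are RefSeq's and matched 69.8% of rows. Rows at 0.5 or more in at least 2 of the 8 libraries were tested, so some passed only through extract libraries. The difference was tested with limma 3.58.1 (R 4.3.3, trend and robust settings) on log2(value + 0.1), in 1 fit of 8 libraries and 5 levels. The log2 differences thus understate changes of low genes. edgeR 4.0.16 and DESeq2 1.42.0 on the recovered whole reads were alternatives, and the limma fit was tested on simulated data.

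The genes named are the 20 with most reads, the 20 highest per length, members of the gene lists, and the 10 called genes that moved most in either direction at a mean of 1 or more. The members and lists were chosen with earlier results of these data known. The zinc and sterol lists, the metal response element, the length correction, DESeq2 without independent filtering and the choice of promoter windows shown came after the difference between the untreated libraries had been seen.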

Additional observations from a re-analysis of the deposited data

How the results depend on the processing

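The number of called rows, 184, depended most on the filter and the tool. It was 6 with no filter (3 higher in untreated 1 and 3 higher in untreated 2, with 1 interferon-stimulated gene), 98 with edgeR (15 and 83) and 73 with DESeq2 (17 and 56, with 2 interferon-stimulated genes). DESeq2 by default gave no adjusted p to 9994 rows, 124 of the 184 among them, because its filter was set at a mean of 5730 reads. Without that filter, an alternative added after this was seen, it called 29 (5 and 24, with 4 interferon-stimulated genes). The replicate block gave 93 (11 and 82). Same-numbered deviations correlated at -0.35 to 0.29 over pairs of groups, with both signs, so the numbers gave no common direction. These correlations cannot exclude variation that groups share without following the numbers. Leaving out each extract library in turn gave 180 to 237 called rows, 42 to 57 higher in untreated 1, 136 to 180 higher in untreated 2 and 20 to 30 interferon-stimulated genes. The other scalings and pseudocounts stayed within 1.5 times of the count.

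The 76 rows at least 1.5-fold apart became 388 at the lower fold tried, 8 at 2-fold, 203 with a mean of at least 0.5 and 9 with a mean of at least 5. Detection by either untreated library alone gave 11249 and 11258 rows, and the share of the 10 most abundant rows was 4.82% and 4.94%. Of the 20 genes highest per transcript length, 12 stayed among the 20 highest by coding length. No direction reversed among the genes recomputed. Slc30a1, Mt2, Mt1 and Slc39a10 were called under every alternative that gave them an adjusted p. Gm5512 lost its call under most alternatives, and Isg15 gained one with edgeR and without either house dust mite library. With 1 library a side, depth limits genes under a mean of about 1, where few reads decide a ratio.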
